A study of Homo sapiens with 7 samples.

Results

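The genes examined were 10 enzymes and enzyme partners of leukotriene and prostaglandin synthesis, ALOX5, ALOX5AP, LTA4H, LTC4S, PTGS1, PTGS2, PTGES, HPGDS, PLA2G4A and TBXAS1, out of 20163 protein-coding genes in the annotation. They were chosen by name, with earlier results of these data known, so ranks of single genes are a description only. The binding sites assigned to them were the ChIP-seq peak summits in the gene or within 5 kb of its ends. A distance of 50 kb served as a wider view. Of 18087 AML1-ETO summits in the genome, 27 fell within 5 kb of the 10 genes. The corresponding numbers were 12 of 11692 for AML1, 16 of 10004 for N-CoR, 9 of 11020 for p300 and 11 of 19632 for H3K4me3.

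The study mapped AML1 (RUNX1), the fusion protein AML1-ETO, the co-repressor N-CoR, the acetyltransferase and co-activator p300 and the histone mark H3K4me3 in Kasumi-1. Kasumi-1 is an established myeloblast line from peripheral blood that carries the t(8;21) translocation; the cells were in log-phase growth when fixed, the labels name no treatment, and no other cell line or condition was compared. AML1-ETO joins the DNA-binding part of AML1 to ETO. The fusion was pulled down with an ETO antibody, and the AML1 antibody recognises a part of AML1 that the fusion lacks. Each antibody had 2 biological replicates that the authors pooled before calling peaks, so every list stands alone, no spread between replicates could be given and no test between groups was possible. The lists hold positions without read counts, and the depth behind a single site is therefore unknown. A peak is listed or it is not, and a gene without a summit may still carry signal under the authors' threshold. H3K27me3 and input were not analysed here.

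Eicosanoids are lipid mediators made from arachidonic acid, which cytosolic phospholipase A2 releases from membranes. In myeloid cells 5-lipoxygenase, helped by its activating protein, turns arachidonic acid into leukotriene A4, from which LTA4 hydrolase makes the neutrophil attractant leukotriene B4 and LTC4 synthase makes the cysteinyl leukotrienes. In the other branch the cyclooxygenases make prostaglandin H2, which separate synthases turn into prostaglandin E2, prostaglandin D2 or thromboxane A2.

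AML1-ETO summits were found within 5 kb of 7 of the 10 genes, against 41.3% of all protein-coding genes. ALOX5 had 7, ALOX5AP and TBXAS1 had 6 each, LTC4S had 3, PTGS1 and PLA2G4A had 2 each and PTGS2 had 1. The other 3 genes, LTA4H, PTGES and HPGDS, had none from any of the 4 proteins. AML1 summits lay at 7 genes (34.9% of all genes), N-CoR at 6 (26.7%), p300 at 5 (45.5%) and H3K4me3 at 8 (68% of all genes). In the first part of each deposited list, up to its middle entry, AML1 was left at 2 genes (19.8% of all genes), AML1-ETO at 7 (24.4%), N-CoR at 4 (13.8%), p300 at 4 (27.9%) and H3K4me3 at 5 (51.7%). Over 10 genes these shares are a description only. The leukotriene branch (4 genes) held 16 of the 27 AML1-ETO summits, the prostanoid branch (5 genes) held 9 and PLA2G4A held 2.

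**Figure D1:**
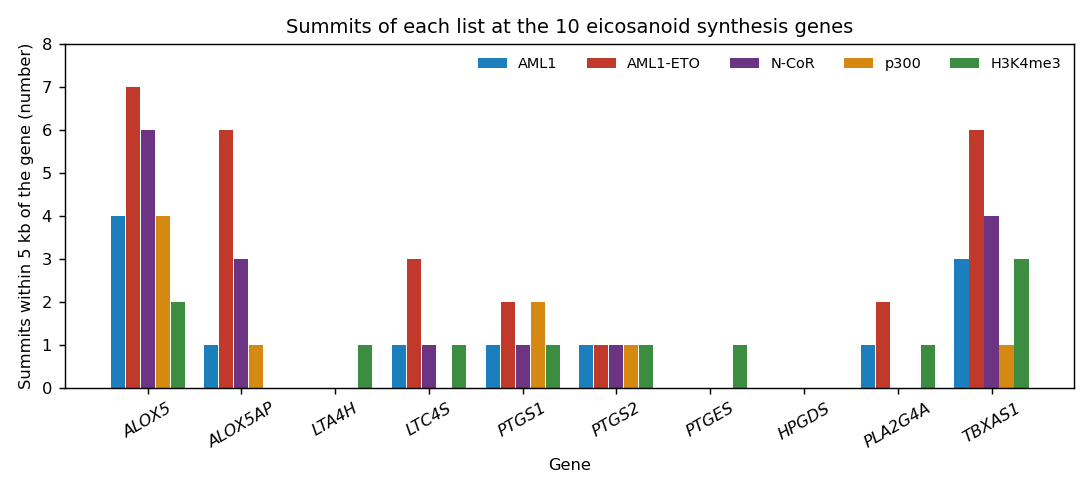
Number of summits of each ChIP-seq list within 5 kb of each of the 10 genes, drawn as a bar for each list. ALOX5 has the highest count of AML1-ETO (7), N-CoR (6) and p300 (4), while LTA4H and PTGES have a single H3K4me3 summit each and HPGDS has none.

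Gene span differs widely in the set, from 2.67 kb for LTC4S to 243 kb for TBXAS1, and longer genes offer more room for a summit. Over all protein-coding genes, 26.7% of those under 10 kb, 37.6% of those from 10 to 30 kb, 47.3% of those from 30 to 100 kb and 58.3% of those of 100 kb or more had an AML1-ETO summit. The 7 summits of ALOX5 (span 71.9 kb) were matched or exceeded by 0.904% of genes from 30 to 100 kb, and the 6 of ALOX5AP (50.9 kb) by 1.55% of them. For LTC4S, 3 summits were reached by 2.74% of genes under 10 kb. The 6 summits of TBXAS1 were reached by 6.16% of genes of 100 kb or more, and the 2 of PLA2G4A (160 kb) by 34.5%. The ALOX5AP count includes summits 14870, 20712 and 22148 bp upstream of the canonical start, and that of TBXAS1 summits at 17980 and 29445 bp. Bounds of the canonical transcript gave 22 AML1-ETO summits at the 10 genes in place of 27, and no rank was computed with them. Per 10 kb searched, LTC4S had 2.37 AML1-ETO summits, ALOX5AP 0.984, ALOX5 0.854, PTGS1 0.569, PTGS2 0.523, TBXAS1 0.237 and PLA2G4A 0.118.

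**Figure D2:**
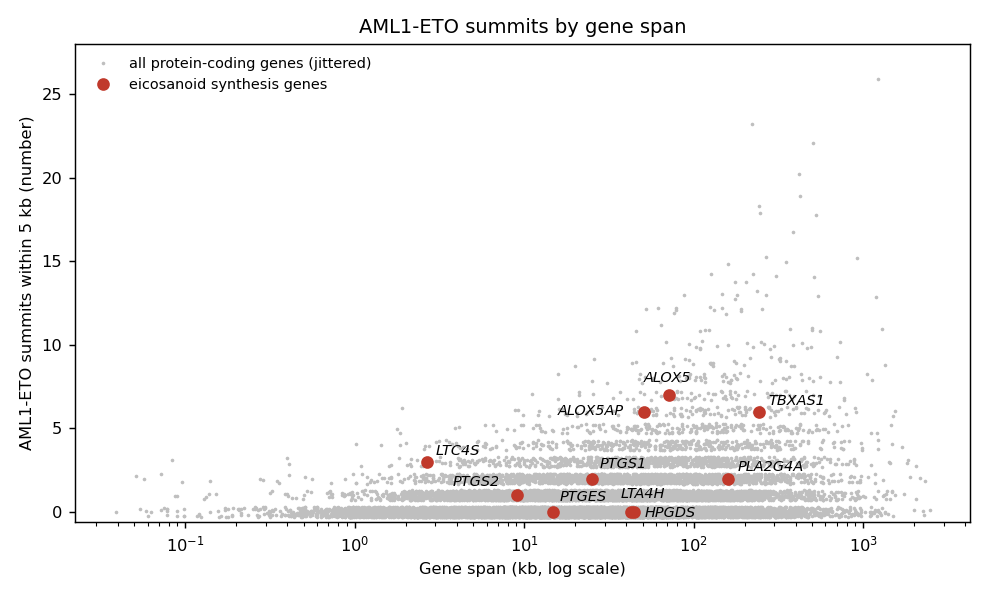
AML1-ETO summits within 5 kb (vertical axis, number) against gene span (horizontal axis, kb, log scale) for every protein-coding gene in grey, jittered vertically, and the 10 genes in red. ALOX5 (7 summits), ALOX5AP (6) and LTC4S (3) sit in the upper part of the cloud for their span, and PLA2G4A (2) in its body.

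ALOX5 encodes 5-lipoxygenase, the entry enzyme of leukotriene synthesis (ENSG00000012779, GRCh37 chr10:45869624-45941567, + strand). It had 7 AML1-ETO, 6 N-CoR, 4 AML1, 4 p300 and 2 H3K4me3 summits, and all 7 AML1-ETO summits were intronic. A locus was defined here as a run of 100 bp windows (a summit and 50 bp to either side) that each share at least 1 bp with the next. By that rule ALOX5 held 3 loci with p300, N-CoR, AML1-ETO and AML1 together. Over the genome, 8.54% of protein-coding genes had at least 1 such locus and 0.382% (77 genes) had 3 or more, as did 0.392% of the genes from 30 to 100 kb. PTGS2 and TBXAS1 held 1 such locus each. At least 1 was held by 4.74% of genes in the span class of PTGS2 and 12.6% in that of TBXAS1. Loci with all 4 proteins made up 18.5% of the 27 loci with AML1-ETO at the 10 genes and 12.6% of those in the genome. Of the 5 such loci at the 10 genes 3 were in ALOX5, so the higher share rested on that gene. By direct overlap with the AML1-ETO window instead of chaining, 3 of the 27 AML1-ETO sites (11.1%) met all 3 other proteins, against 12.1% of fusion-protein peaks lying at most 5 kb from any protein-coding gene. These were ALOX5 at 6192 and 46473 bp and TBXAS1 at 78670 bp from the first start. No share of genes was computed by direct overlap.

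The site in intron 4 with p300 was the most spread of these 3 loci. Its AML1-ETO summit lay at chr10:45914197, 44573 bp from the first annotated start of ALOX5. The p300 summit followed at 71 bp, AML1 at 82 bp and N-CoR at 128 bp. The N-CoR window therefore did not meet the AML1-ETO window and joined the locus through AML1 (46 bp away) and p300 (57 bp away). An H3K4me3 summit lay 464 bp downstream of AML1-ETO, 45037 bp from the first start. The other intron 4 locus was 46410 to 46473 bp from the start, and its 4 summits fell within 63 bp, with N-CoR at 6 bp and p300 at 63 bp from AML1-ETO. The locus in intron 1 lay 6153 to 6199 bp from the start, and its 4 summits fell within 46 bp, with N-CoR at 4 bp, AML1 at 7 bp and p300 at 39 bp from AML1-ETO.

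The sequences of the 3 loci of ALOX5 are printed because they carry the joint sites of all 4 proteins. They are from the + strand of GRCh37 (hg19), written 5′ to 3′, and capitals mark TGTGGT (the Runx core), GAGGAA (the PU.1 core) and AGGAAG (an ETS core) on either strand. The last pair shares 5 bases where they overlap, so that a run of 7 capitals such as GAGGAAG counts for both.
ALOX5 chr10:45875727-45875872: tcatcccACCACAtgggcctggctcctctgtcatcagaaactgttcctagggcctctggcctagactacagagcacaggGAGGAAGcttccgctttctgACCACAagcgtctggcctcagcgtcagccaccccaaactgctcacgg
ALOX5 chr10:45914147-45914374: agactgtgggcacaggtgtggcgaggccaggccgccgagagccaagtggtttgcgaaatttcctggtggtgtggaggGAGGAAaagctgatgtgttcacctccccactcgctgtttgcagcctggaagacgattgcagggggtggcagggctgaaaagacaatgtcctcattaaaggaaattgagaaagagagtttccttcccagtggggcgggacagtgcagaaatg
ALOX5 chr10:45915984-45916146: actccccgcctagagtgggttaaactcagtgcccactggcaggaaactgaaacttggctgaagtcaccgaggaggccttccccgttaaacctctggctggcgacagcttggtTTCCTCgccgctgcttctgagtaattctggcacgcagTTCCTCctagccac
The intron 1 locus held 2 Runx matches, 1 PU.1 match and 1 ETS match. The intron 4 locus at chr10:45914147-45914374 held 1 PU.1 match and no Runx match, and the locus at chr10:45915984-45916146 held 2 PU.1 matches and no Runx match.

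The remaining ALOX5 summits lay apart. An AML1-ETO summit in intron 1, 2309 bp from the start, had N-CoR 9 bp away. In intron 6 an AML1-ETO summit at 51054 bp had p300 38 bp away and no AML1 or N-CoR. In intron 3 AML1 and N-CoR lay 41 bp apart at 30030 and 30071 bp, and the nearest AML1-ETO summit, 155 bp from N-CoR, did not overlap them. AML1-ETO at 47424 bp and N-CoR at 47128 bp stood alone. The promoter of ALOX5 carried H3K4me3, 106 bp past the canonical start, and none of the 4 proteins within 1000 bp of it.

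**Figure D3:**
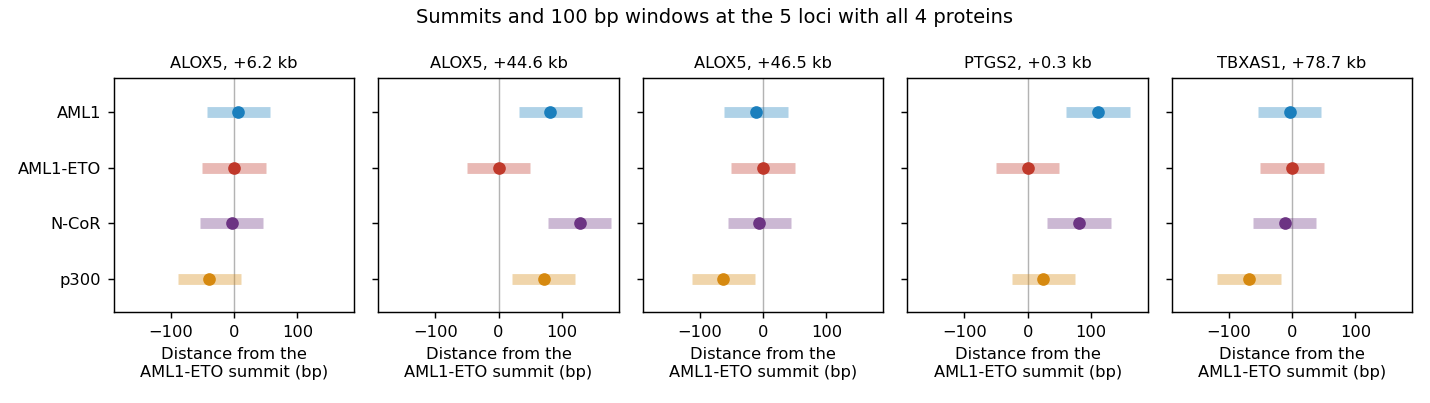
Summits of the 4 proteins at the 5 loci where all 4 windows chain together (3 in ALOX5, 1 in PTGS2 and 1 in TBXAS1), by distance from the AML1-ETO summit in bp, with each bar spanning the 100 bp window. In the locus of ALOX5 with the widest spread, N-CoR sits 128 bp from AML1-ETO and its bar does not meet the AML1-ETO bar.

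ALOX5AP encodes the 5-lipoxygenase activating protein, which presents arachidonic acid to the enzyme (ENSG00000132965, chr13:31287615-31338563, + strand). It had 1 AML1, 6 AML1-ETO, 3 N-CoR and 1 p300 summits and no H3K4me3 summit within 5 kb. The gene has an annotated start 22065 bp upstream of the canonical start, and AML1-ETO summits were found at both. At the upstream start AML1-ETO lay 83 bp before it, with N-CoR 17 bp and p300 43 bp from AML1-ETO. At the canonical start AML1-ETO lay 121 bp before it, with N-CoR 64 bp away and no p300 or AML1. A further AML1-ETO summit, 7195 bp past the upstream start, had AML1 at 4 bp and N-CoR at 19 bp. The 3 others, 1353 bp past the upstream start and 2225 and 8940 bp past the canonical start, overlapped none of the other lists. The nearest H3K4me3 summit was 39094 bp from any ALOX5AP start. The canonical promoter site and the intronic site that AML1 shared are printed for comparison with ALOX5, with capitals as above.
ALOX5AP chr13:31309509-31309672: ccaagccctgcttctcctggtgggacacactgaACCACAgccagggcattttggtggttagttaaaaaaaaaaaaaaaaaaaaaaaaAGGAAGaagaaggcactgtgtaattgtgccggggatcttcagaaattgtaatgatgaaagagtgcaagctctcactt
ALOX5AP chr13:31294741-31294863: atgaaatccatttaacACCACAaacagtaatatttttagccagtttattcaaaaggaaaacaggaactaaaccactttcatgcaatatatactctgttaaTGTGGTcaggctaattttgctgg
The promoter locus held 1 Runx match and 1 ETS match and a run of 25 identical bases. The intronic locus held 2 Runx matches and no PU.1 or ETS match.

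LTC4S encodes LTC4 synthase, which conjugates leukotriene A4 with glutathione (ENSG00000213316, chr5:179220981-179223648, + strand). AML1-ETO lay 84 bp upstream of the canonical start, with AML1 12 bp and N-CoR 14 bp from it and no p300. A second AML1-ETO summit lay 1115 bp upstream and the last 2221 bp downstream, 652 bp from another annotated LTC4S start, and both overlapped none of the other lists. The single H3K4me3 summit was 242 bp from the downstream AML1-ETO summit, 2463 bp from the canonical start and 894 bp from the nearest annotated start. The promoter locus was the only one of the set with AML1-ETO, AML1 and N-CoR together within 1000 bp of a start and no p300, and it held 1 PU.1 match and 1 Runx match.
LTC4S chr5:179220853-179220966: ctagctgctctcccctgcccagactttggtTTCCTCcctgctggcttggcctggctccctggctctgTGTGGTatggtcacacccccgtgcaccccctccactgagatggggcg
LTA4H, the hydrolase of the competing step (ENSG00000111144, chr12:96394531-96437298, - strand), had H3K4me3 206 bp past its canonical start and no summit of the 4 proteins within 5 kb. In the wider view AML1-ETO lay 28933 and 38483 bp upstream of that start, outside annotated genes and with no other list overlapping.

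PLA2G4A encodes cytosolic phospholipase A2 alpha, which releases arachidonic acid (ENSG00000116711, chr1:186798081-186958113, + strand). It had H3K4me3 240 bp past its start, and its AML1-ETO summits lay far downstream. The AML1-ETO summit in intron 16, 149914 bp from the start, had AML1 14 bp away. The AML1-ETO summit in intron 17, at 154523 bp, stood alone. No N-CoR or p300 summit lay within 50 kb of the gene.

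PTGS1 and PTGS2 encode the constitutive and the inducible cyclooxygenase, and their sites differed in place and partners. PTGS1 (ENSG00000095303, chr9:125132809-125157982, + strand) had 1 AML1, 2 AML1-ETO, 1 N-CoR and 2 p300 summits. AML1-ETO and p300 lay 73 bp apart, 4921 bp upstream of the canonical start measured at AML1-ETO. A p300 summit at 59 bp past that start had H3K4me3 96 bp away and no AML1-ETO. In intron 9, AML1-ETO lay within 1 bp of AML1 and 23 bp of N-CoR, without p300.

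PTGS2 (ENSG00000073756, chr1:186640923-186650054, - strand) had 1 summit of each list, and all 5 lay within 1000 bp of the canonical start. Upstream of that start lay AML1-ETO at 220 bp, p300 at 195 bp, N-CoR at 139 bp and AML1 at 109 bp, and H3K4me3 was 256 bp downstream of it. The AML1-ETO window met the p300 window (25 bp apart) and the N-CoR window (81 bp apart), and AML1, 111 bp away, joined only through them. This stretch is shared with the antisense RNA gene PACERR, whose start was 17 bp from the p300 summit, and the positions cannot say which gene the site belongs to.

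TBXAS1 encodes thromboxane A synthase (ENSG00000059377, chr7:139476850-139720125, + strand). It had 6 AML1-ETO, 4 N-CoR, 3 AML1, 1 p300 and 3 H3K4me3 summits within 5 kb. All 6 AML1-ETO summits were intronic, at 22768, 34233, 76606, 78670, 109317 and 139581 bp from the first annotated start. The site at 78670 bp had all 4 proteins, with AML1 at 4 bp, N-CoR at 12 bp and p300 at 68 bp from AML1-ETO. Of the other 5, the site at 139581 bp had AML1 and N-CoR, the site at 109317 bp had AML1 alone, the site at 22768 bp had N-CoR alone, and the sites at 34233 and 76606 bp had none. The 3 H3K4me3 summits lay 17, 606 and 1333 bp past the first start, and the neighbouring gene HIPK2 also lies at the summits of 17 and 606 bp. None was within 1000 bp of the canonical start, which is 52213 bp further on. The locus of all 4 proteins held 1 Runx, 2 PU.1 and 2 ETS matches, and is printed as the counterpart of the ALOX5 loci outside the leukotriene branch.
TBXAS1 chr7:139555402-139555569: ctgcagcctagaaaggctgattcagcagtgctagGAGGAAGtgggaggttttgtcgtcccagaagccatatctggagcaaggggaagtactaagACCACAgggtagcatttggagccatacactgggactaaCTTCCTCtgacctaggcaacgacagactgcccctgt

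PTGES, the inducible prostaglandin E synthase (ENSG00000148344, chr9:132500610-132515321, - strand), had a single H3K4me3 summit, which lay 15140 bp from its start and past its far end. Its nearest AML1-ETO summit was 24405 bp upstream and outside annotated genes, with N-CoR 3 bp and AML1 21 bp away. HPGDS, the haematopoietic prostaglandin D synthase (ENSG00000163106, chr4:95219686-95264027, - strand), had no summit of any list within 50 kb. The nearest H3K4me3 summit lay 109276 bp from an HPGDS start.

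**Figure D4:**
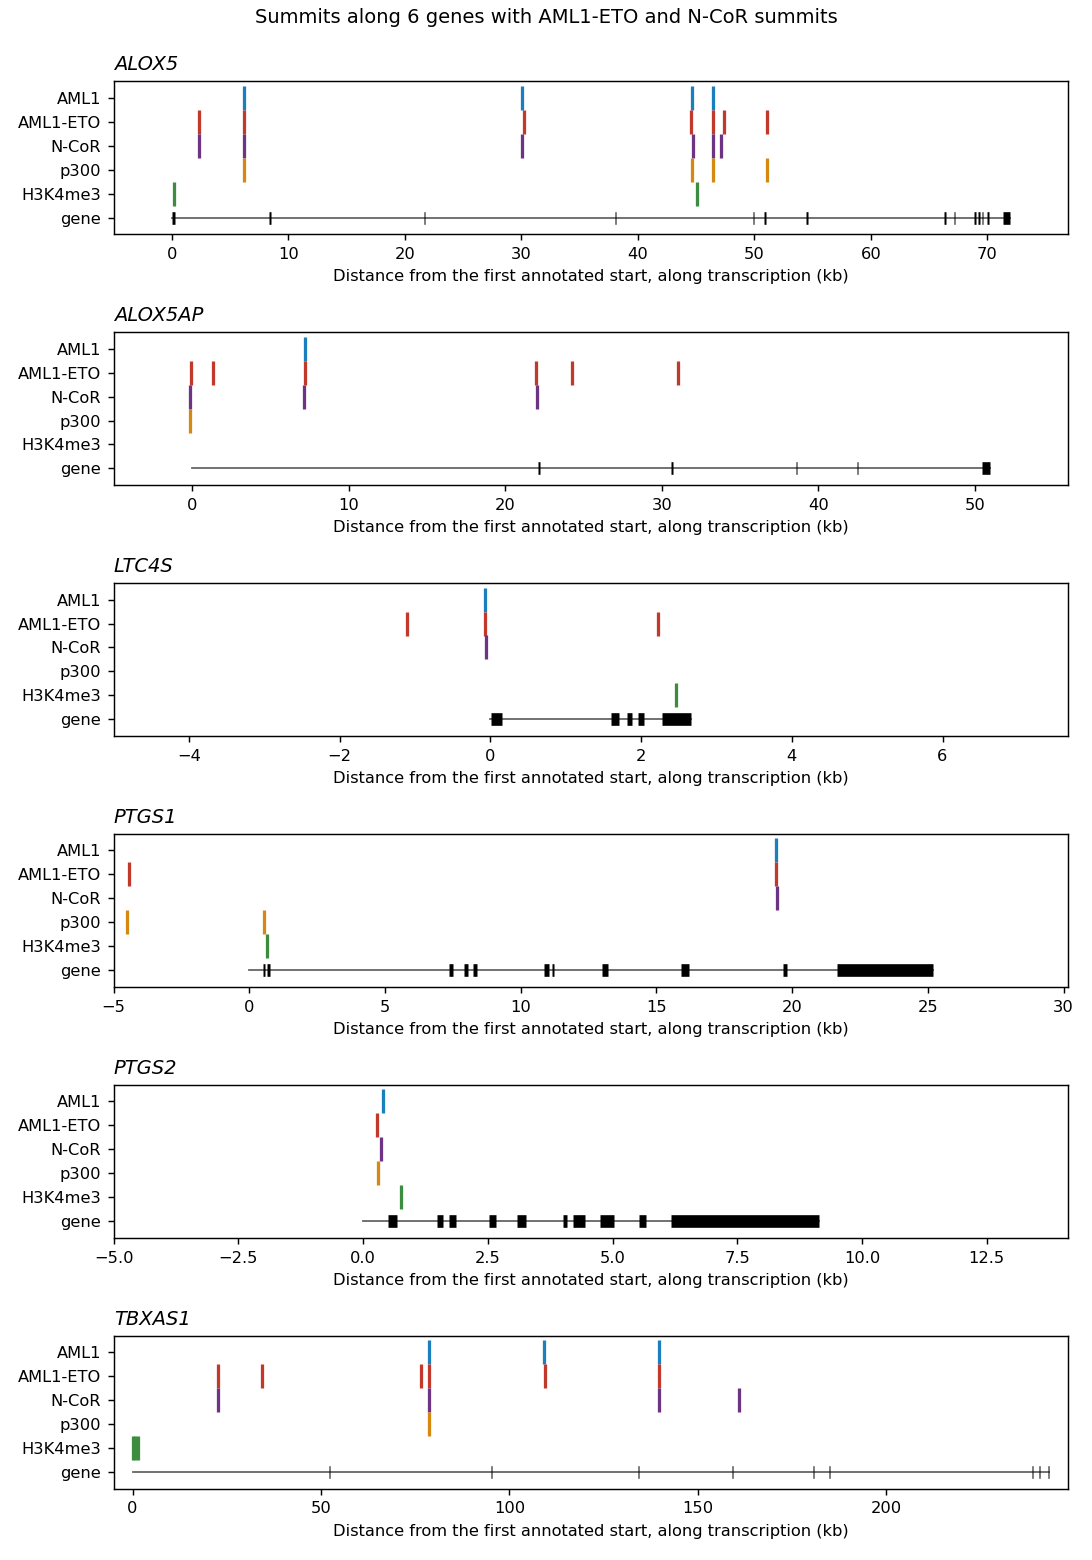
Summits along the 6 genes with both AML1-ETO and N-CoR summits within 5 kb (ALOX5, ALOX5AP, LTC4S, PTGS1, PTGS2 and TBXAS1). The horizontal axis is distance from the first annotated start in kb along the direction of transcription, with a separate scale for each gene. Marks show the 5 lists, the line the gene and the bars the exons of the canonical transcript. ALOX5 and TBXAS1 show AML1-ETO along their introns, and PTGS2 shows all 5 lists at its start.

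Of the 27 AML1-ETO sites, 20 were intronic, which is 74.1% with an exact Clopper-Pearson 95% interval of 53.7 to 88.9%. Among the 13151 AML1-ETO peaks within 5 kb of any protein-coding gene, 46% were intronic. Sites within 1000 bp of an annotated start numbered 5 (18.5%, 6.3 to 38.1%), against 42.8% of the 13151. An H3K4me3 summit lay within 1000 bp of 3 sites (11.1%, 2.35 to 29.2%), in ALOX5, LTC4S and PTGS2, against 33.9% of the 13151. The lists give summits only, so how far the mark extends around a summit is unknown, and the other sites may still carry it. Without ALOX5 the intronic share was 65% (40.8 to 84.6%) and the promoter share 25% (8.66 to 49.1%), and both intervals then included the share over the 13151 peaks. The share near an H3K4me3 summit was then 10% (2 of 20, 1.23 to 31.7%), an interval still below 33.9%. These intervals cover counting error over sites only. Sites in the same gene share a neighbourhood and are not replicates, and no test of these differences was made.

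AML1 windows overlapped 10 of the 27 AML1-ETO sites (37%, 19.4 to 57.6%), N-CoR windows 12 (44.4%, 25.5 to 64.7%) and p300 windows 8 (29.6%, 13.8 to 50.2%). The values over the 13151 peaks were 44.4%, 37.7% and 23.5%, and all of them fell inside the intervals. N-CoR without p300 was seen at 7 sites (25.9%, against 21.7%), p300 without N-CoR at 3 (11.1%, against 7.47%) and both at 5 (18.5%, against 16.1%). The 3 sites with p300 and no N-CoR overlap were ALOX5 intron 4 at chr10:45914197, ALOX5 intron 6 and the PTGS1 upstream site, and at the first of these N-CoR lay 128 bp away. Overlapping AML1 summits lay 1 to 82 bp from AML1-ETO with a median of 11.5 bp, N-CoR summits 4 to 81 bp with a median of 18 bp, and p300 summits 25 to 73 bp with a median of 53 bp. Without the 7 sites of ALOX5, the share with p300 was 20%, that with N-CoR 45% and that with AML1 35%. The share with p300 and no N-CoR was then 5% and that with both 15%, each below the value over the 13151 peaks. The share with N-CoR and no p300 was then 30%. With windows reaching 25 bp to either side of a summit, p300 overlapped 4 of the 27 sites (14.8%), against 17.4% of the 13151 peaks at that width.

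Read from the other lists, 10 of the 12 AML1 summits, 12 of the 16 N-CoR summits and 8 of the 9 p300 summits at these genes overlapped AML1-ETO. Over the summits of each list within 5 kb of protein-coding genes the shares were 69.8% for AML1, 69.2% for N-CoR and 32.7% for p300. The p300 count depended on the window, since 4 AML1-ETO sites in place of 8 overlapped p300 with 25 bp to either side. Of the 8 overlapping p300 summits 4 were in ALOX5, and without that gene the counts were 4 of 5 for p300, 9 of 10 for N-CoR and 7 of 8 for AML1. The p300 summit that did not overlap AML1-ETO was the promoter summit of PTGS1, which alone overlapped an H3K4me3 window. By branch, 5 of the 16 AML1-ETO sites of the leukotriene genes and 3 of the 9 of the prostanoid genes overlapped p300, 7 and 5 overlapped N-CoR, and 5 and 4 overlapped AML1.

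**Figure D5:**
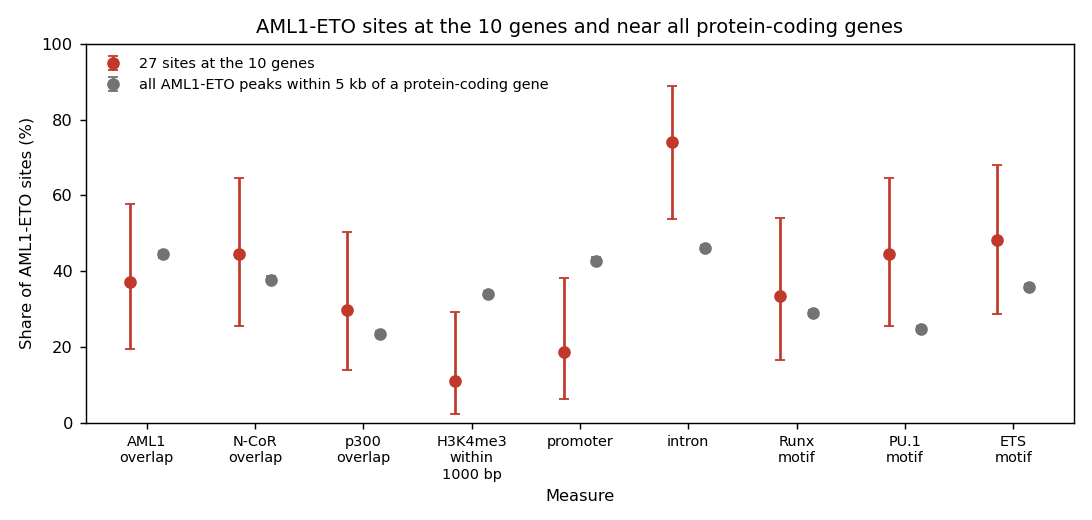
Share in percent of the 27 AML1-ETO sites at the 10 genes (points with exact 95% intervals for counting error) that overlap each other protein, lie at each kind of position or hold each sequence, beside the share over the 13151 AML1-ETO peaks within 5 kb of protein-coding genes. The intronic share (74.1%) stands above and the promoter share (18.5%) below the share for all peaks, although without ALOX5 (65% and 25%) the intervals include it, and the shares with AML1, N-CoR and p300 lie near it.

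Sequence matches were counted in the 100 bp around each AML1-ETO summit and, for scale, in 100 bp at 19799 starts of protein-coding genes. TGTGGT was found at 9 of the 27 sites (33.3%, 16.5 to 54%), against 29% of the 13151 peaks and 3.56% of starts. GAGGAA was found at 12 sites (44.4%, 25.5 to 64.7%), against 24.7% and 10.1%. AGGAAG was found at 13 sites (48.1%, 28.7 to 68.1%), against 35.8% and 13.1%. These shares depended on the window, and with 25 bp to either side GAGGAA was at 6 sites (22.2%, against 13.6% of the 13151) and AGGAAG at 7 (25.9%, against 20.4%). The joined form GAGGAAG accounted for 7 sites (25.9%, 11.1 to 46.3%), against 16.4% of all AML1-ETO peaks, so the PU.1 and ETS counts are not separate. In ALOX5, 6 of the 7 sites held GAGGAA and 1 held TGTGGT, while in ALOX5AP no site held GAGGAA and 3 of the 6 held TGTGGT. Without ALOX5 the GAGGAA share was 30% (6 of 20, 11.9 to 54.3%), and the interval then included the 24.7% over the 13151 peaks. A match describes the letters in the window and does not show which factor bound there.

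In the wider view 42 AML1-ETO summits lay within 50 kb of 9 of the 10 genes, where 66.5% of all protein-coding genes had one. The other lists gave 18 AML1 summits at 8 genes (59.8% of all genes), 21 N-CoR at 7 (48.7%), 12 p300 at 6 (64.4%) and 17 H3K4me3 at 9 (80.9%). Of the 15 AML1-ETO summits added, 5 lay in other genes. Next to LTC4S an added AML1-ETO summit lay 13407 bp upstream of the canonical start and outside annotated genes, and the others lay at MGAT4B and SQSTM1, with all 3 added p300 summits at SQSTM1 promoters. Those next to TBXAS1 were at HIPK2 and PARP12, and the pair of AML1 and AML1-ETO summits next to ALOX5 lay in an intron of MARCHF8.

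The pathway's other genes were taken from a list of 45 receptors, transporters, phospholipases, lipoxygenases, synthases and catabolic enzymes, all of which were found in the annotation. AML1-ETO summits lay within 5 kb of 23 of them (51.1%, against 41.3% of all protein-coding genes), AML1 of 19 (42.2%, against 34.9%) and N-CoR of 15 (33.3%, against 26.7%). For p300 (14 genes, 31.1%, against 45.5%) and H3K4me3 (24 genes, 53.3%, against 68%) the share was below that of all genes, with no test made. Within 50 kb this did not hold for H3K4me3, which lay at 39 of the 45, against 80.9% of all genes. For p300 the 50 kb count was 28 of the 45, against 64.4% of all genes. ABCC1, a transporter that exports leukotriene C4, had 6 AML1-ETO summits, of which 4 overlapped N-CoR and 2 overlapped p300. DPEP2, a dipeptidase of the leukotriene D4 step, and SLCO2A1, a prostaglandin transporter, had 3 each and no N-CoR or p300 summit, and SLCO2A1 also had 3 AML1 summits. ABCC4 (a prostaglandin exporter), CYSLTR1 (a cysteinyl leukotriene receptor) and DPEP1 (a dipeptidase) had 2 each, and at CYSLTR1 and DPEP1 1 of the 2 overlapped p300. These were the alphabetically first of the genes tied at 2, with MGST2, LTB4R, LTB4R2, PLA2G5, PLA2G6, PTGER1, PTGER3 and PTGER4. MGST2, a microsomal glutathione transferase able to make leukotriene C4, had 2 AML1-ETO summits and both overlapped p300. AML1-ETO with p300 was also seen once at PTGR2, a prostaglandin reductase, and once at TBXA2R, the thromboxane receptor.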

How the data were processed

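ChIP-seq libraries of Kasumi-1 cells were processed by the authors, who per the labels used CASAVA 1.6, Bowtie 0.12.8 and MACS2 2.0.10.20131216 and the GRCh37 (hg19) build, pooled 2 replicates per antibody and kept peaks at p below 1e-20. The deposited lists hold positions and numbered names with no score, and every interval is 100 bp wide. Names in the N-CoR, p300 and H3K4me3 lists carry the prefix of another antibody; each file was assigned by its sample record. What the order of the lists means is not given in the sources used here, and neither is the depth per peak.

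Summits were assigned to genes of GENCODE release 44 lifted to GRCh37, within 5 or 50 kb of the gene bounds. Windows overlapped when they shared at least 1 bp, and a promoter was within 1000 bp of any transcript start. Coordinates are counted from 1. All 10 genes were described; of the other 45, the 6 with the most AML1-ETO summits (ties in alphabetical order) and those with AML1-ETO and p300 overlapping were named. Genes and lists were chosen with earlier results of these data known. Overlap counting was tested on simulated data, where 1500 of 1500 planted overlaps among 5000 windows were recovered. Alternatives were other bounds, window widths, promoter and motif widths, transcript sets and the earlier part of each list. No p-value was computed, since each antibody has 1 pooled list. Only some site sequences are reported here. Scripts ran under Python 3.11.15 with pysam 0.24.0, SciPy 1.17.1, numpy 2.4.6 and matplotlib 3.10.9.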

Additional observations from a re-analysis of the deposited data

How the results depend on the processing

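Of 116 alternative values, 95 stayed within a tolerance of the reported count or within the interval of the share, and 21 moved further. The tolerance for counts was wide. AML1 summits at the 10 genes going from 12 to 18 within 50 kb were counted as staying. So were other pathway genes with N-CoR going from 15 to 10 in gene bodies alone. Keeping the first part of each list, up to its middle entry, lowered the members with AML1 from 7 to 2 and with H3K4me3 from 8 to 5, and left 17 AML1-ETO, 4 AML1, 9 N-CoR, 4 p300 and 5 H3K4me3 summits. The other 45 pathway genes then fell from 15 to 8 for N-CoR, 14 to 4 for p300 and 24 to 13 for H3K4me3. Over all protein-coding genes that part lowered H3K4me3 from 68% to 51.7%, p300 from 45.5% to 27.9% and N-CoR from 26.7% to 13.8%. It lowered AML1 from 34.9% to 19.8% and AML1-ETO from 41.3% to 24.4%. Counts thus fell genome-wide for every list, while the members with AML1-ETO stayed at 7. At 50 kb the AML1-ETO summits rose to 42 and those of H3K4me3 to 17, and the other pathway genes with a summit were 36 with AML1-ETO, 30 with AML1, 29 with N-CoR, 28 with p300 and 39 with H3K4me3. The shares of all protein-coding genes at 50 kb were 66.5%, 59.8%, 48.7%, 64.4% and 80.9% in the same order. Within gene bodies alone the other pathway genes with a summit were 12 for AML1 and 9 for p300. Among the shares that stayed within their interval, p300 overlap fell to 14.8% for 25 bp half-widths and to 17.6% in the first part of the lists, AML1 overlap fell to 23.5% in the first part, and promoters taken at double the distance held 29.6%. With motifs counted 25 bp to either side, the shares were 22.2% for GAGGAA and 25.9% for AGGAAG, since shorter windows hold fewer letters. The canonical bounds, the sets without ALOX5, the chained loci and the background shares for other widths, gene spans and list parts were chosen after seeing the data. No paired analysis was possible because each antibody has 1 pooled list. The lists have no score, so a stricter peak threshold was not run.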
